A study of Bos taurus with 31 samples.

Results

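The virgin heifers whose mammary organoids carried the most ESR1 RNA were compared with those whose organoids carried the least. ESR1 (ENSBTAG00000007159) encodes oestrogen receptor alpha. All 15 virgin libraries of the series were ranked by the log2 CPM of ESR1, where CPM is the read count scaled to the size of the library, and the groups were chosen by these values alone. The 5 highest (ESR1-high) were set against the 5 lowest (ESR1-low), with 5 in between. The comparison therefore uses 10 of the 31 libraries of the series, and each library is a different animal. The ranking is an ordering of animals by a measured level. No treatment separates them, so a gene that differs is a gene whose level goes with that of ESR1.

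The series holds RNA sequencing of mammary epithelial organoids from 16 dairy cows. Organoids are the clusters of epithelium left after biopsy tissue is digested with enzymes and single cells are spun away. Virgin biopsies were taken at 14 months of age and lactating ones at 40 to 60 days of lactation, and 15 animals gave both. The sources used here give neither breed, genotype nor stage of the oestrous cycle, and no agent distinguishes the groups. Libraries are named by stage and animal, so that V581 and L581 are the virgin and the lactating library of the same cow. In each list of 5 values below, the ESR1-high libraries stand in the order V581, V507, V504, V595 and V598, and the ESR1-low ones in the order V502, V531, V610, V615 and V509, which is the order of falling ESR1.

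In the mammary gland, oestrogen receptor alpha is made by a subset of luminal epithelial cells, the hormone-sensing cells. They bind oestrogen, progesterone and prolactin from the blood and pass the signal to neighbouring luminal progenitor, basal and stromal cells through secreted factors such as amphiregulin and RANK ligand. The pioneer factor FOXA1 and the factors GATA3 and TBX3 act with the receptor in these cells, and PDZK1 and GREB1 are well-known oestrogen-induced genes. In bulk samples, fewer cells of a type and less RNA per cell cannot be told apart, and this holds for every gene below.

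ESR1 stood at 320.6, 108.7, 102.2, 92.9 and 91.9 CPM in the ESR1-high libraries, and at 36.9, 36.0, 22.0, 19.3 and 16.8 CPM in the ESR1-low libraries. The middle libraries lay between 52.0 and 80.9 CPM. These values chose the groups and get no test. V598 (91.9 CPM) was just inside the high group and V468 (80.9 CPM) just outside it, while V502 (36.9 CPM) was just inside the low group and V479 (52.0 CPM) just outside. On the log scale the step at the lower edge was wider than that at the upper edge. V581 had about 3 times the ESR1 of the library below it, and within the low group V610 (22.0 CPM) lay well below V531 (36.0 CPM). The counts of ESR1 behind these values were 447 to 10242, so counting error is small beside the differences between animals. Without scaling factors the ranking put V479 in place of V502 in the low group, and the high group kept all 5 libraries.

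**Figure D1:**
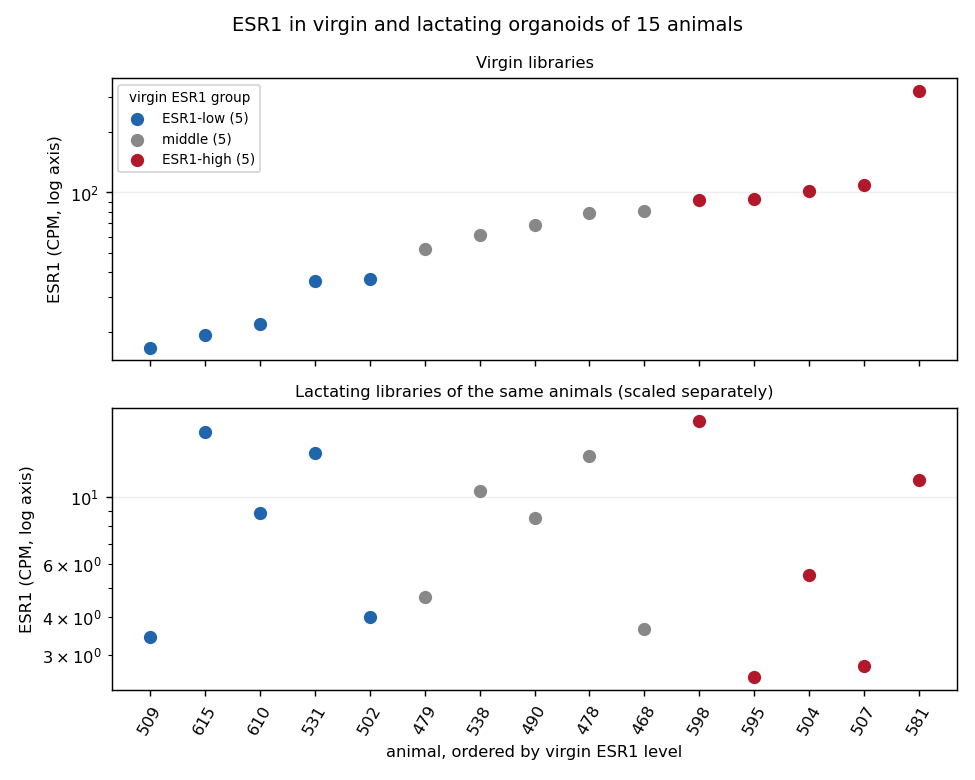
ESR1 in CPM on log axes, in the virgin libraries (upper panel) and the lactating libraries of the same 15 animals (lower panel), 1 point per library, ordered and coloured by the virgin level. V581 stands above all other virgin libraries at 320.6 CPM, and the colours are mixed in the lactating panel. The panels were scaled separately, so levels are to be compared within a panel.

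Some libraries stood apart from the rest in ways that touch the results. Total counts ran from 21184336 to 44707310 in the ESR1-high and from 21590725 to 60114505 in the ESR1-low libraries, with V509 the deepest. The scaling factors (TMM), which enter the ranking, ran from 0.84 to 1.16 in the ESR1-high and from 1.05 to 1.24 in the ESR1-low libraries. The middle library V479 had a factor of 0.71. V502 carried 27607 CPM summed over 14 fibroblast markers, against 603 to 3361 CPM in the other 9 libraries compared. V509 carried 4403 CPM of milk protein genes, against 404 to 774 CPM in the other 9. The titles of 2 ESR1-high, 2 middle and 1 ESR1-low libraries hold a letter after the animal number, whose meaning the sources used here do not give. The labelled epithelium was checked against luminal markers. KRT8, a keratin of luminal cells, was at 636 to 2953 CPM against 329.7 to 539 CPM in the ESR1-high and ESR1-low libraries, and 0 of 14 luminal markers were at 0 in any of them.

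Across the table no gene passed the test between the groups. Of 13559 rows other than ESR1, 0 (0%) were higher and 0 (0%) lower at an adjusted p under 0.05 (edgeR quasi-likelihood test, Benjamini-Hochberg), and the smallest adjusted p was 0.166. At an unadjusted p under 0.05, edgeR gave 1018 higher (7.51%) and 1076 lower (7.94%), and DESeq2 called (adjusted p under 0.05) 101 higher and 54 lower. The 5 ESR1-high libraries lay wholly above the 5 ESR1-low ones in 384 rows (2.83%) and wholly below in 280 (2.07%). By sign alone 46.5% of rows were higher and 53.5% lower, and without scaling factors 35.1% were higher, because the median log2 difference of all rows moved from -0.05 to -0.23. In simulated data of this design the edgeR test recovered 4 of 50 genes changed 2-fold and 31 of 50 changed 4-fold, so a difference of 2-fold was mostly beyond its reach. The simulation drew each gene independently and held no library that stands apart across many genes. Recovery in the real data may therefore be lower, also for a 4-fold difference.

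The number of calls depended on which libraries entered the fit. When V502 was left out, 88 rows were higher and 29 lower (edgeR adjusted p under 0.05), and all 117 had the same sign with it included. The fits share all other libraries, so that shared sign is no independent support. The comparison of the 4 highest with the 4 lowest, which moves V502 and V598 to the middle, gave 67 higher and 10 lower. With V502 kept, 22 higher and 5 lower were called when only the 10 libraries compared were fitted, and 15 and 16 when the 7 highest were set against the 7 lowest. With V502 and V509 both left out, which leaves 3 ESR1-low libraries, 0 were called in either direction. With ESR1 as a continuous term over all 15 virgin libraries, an alternative that uses the whole gradient, 38 rows rose (0.28%) and 13 fell (0.0959%) with ESR1. Below, the values for the groups are given with the edgeR log2 difference, ESR1-high minus ESR1-low, and its standard error (SE), and none of these differences passed the test with all 15 libraries. Genes that passed in the continuous fit or without V502 are named as such.

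The receptors and transcription factors that work with ESR1 in hormone-sensing cells stood higher as a list. Of 20 listed, 17 were tested, and all 17 had a higher sign in the ESR1-high libraries, against 46.5% of all rows. Their median log2 difference was 0.63, against -0.05 over all rows, 0.46 without V581 and 0.84 without V502. At an unadjusted p under 0.05, 7 of the 17 were higher and 0 lower, against 7.51% and 7.94% of all rows, and 0 of 17 passed after adjustment. In 1 of the 17, TBX3, the groups did not overlap, a share near the 2.83% of all rows. The progesterone receptor PGR and the second oestrogen receptor ESR2 were not analysed here.

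FOXA1, the pioneer factor that opens chromatin for the receptor, stood at 54.3, 56.5, 51.9, 23.1 and 55.2 CPM in the ESR1-high libraries and at 17.3, 24.0, 17.1, 14.5 and 22.2 CPM in the ESR1-low libraries. Of the ESR1-high libraries, 4 lay between 51.9 and 56.5 CPM, and V595 (23.1 CPM) lay among the ESR1-low ones, below V531. The log2 difference was 1.33 ± 0.28 (SE; edgeR adjusted p = 0.193, and 0.0530 without V502). TBX3, a T-box factor of hormone-sensing cells, stood at 192, 253, 226, 171 and 187 CPM in the ESR1-high libraries and at 75.7, 136, 140.2, 112 and 81.5 CPM in the ESR1-low libraries. Every ESR1-high library was above every ESR1-low one, with a log2 difference of 0.91 ± 0.23 (edgeR adjusted p = 0.234).

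PAQR7, a membrane progestin receptor, had the largest log2 difference of the list, 3.24 ± 0.85, but varied widely among the ESR1-high libraries. It stood at 32.9, 69.3, 3.25, 34.7 and 9.43 CPM in the ESR1-high libraries and at 2.75, 5.38, 5.83, 0.949 and 0.852 CPM in the ESR1-low libraries. V504 (3.25 CPM) was as low as ESR1-low libraries, so the groups overlapped. MYB, a transcription factor found in hormone-sensing cells, was at 16.1 to 29.8 CPM against 6.16 to 19.2 CPM (1.07 ± 0.33), and only V531 among the ESR1-low libraries reached the ESR1-high range. XBP1, a factor of the secretory stress response, differed by 0.89 ± 0.30, with V502 (235.0 CPM) above V598 (220.9 CPM), and it was counted on a stretch 2.8 times as long as its RefSeq gene, where reads of neighbouring genes may be joined.

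In 3 other members the groups overlapped as well. PRLR, the prolactin receptor, stood at 762, 1469.9, 1112, 1228 and 863 CPM in the ESR1-high libraries and at 521, 1143, 220.3, 465 and 812 CPM in the ESR1-low libraries, a log2 difference of 0.78 ± 0.40. V531 and V509 were inside the ESR1-high range and V610 was lowest. GATA3, which specifies luminal cells, was at 103 to 161 CPM against 61.4 to 158 CPM (0.34 ± 0.29), and V502 was among the highest. CITED1, a cofactor found in hormone-sensing cells, was at 1.26 to 2.25 CPM against 0.320 to 1.46 CPM (1.05 ± 0.47).

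Genes that oestrogen is known to induce had no common sign. Of 40 listed, 36 were tested, of which 20 had a higher and 16 a lower sign, with a median log2 difference of 0.05 (-0.13 without scaling factors, and 0.12 without V502). By unadjusted p (under 0.05), 6 were higher and 2 lower, against 7.51% and 7.94% of all rows. PDZK1 (ENSBTAG00000005810), a scaffold protein of the apical membrane, stood apart from the others. It stood at 80.2, 50.0, 40.6, 79.1 and 38.0 CPM in the ESR1-high libraries and at 12.4, 15.6, 3.84, 4.31 and 2.16 CPM in the ESR1-low libraries. The lowest ESR1-high library, V598, had over 2 times the level of the highest ESR1-low one, V531. The log2 difference was 2.91 ± 0.56 (edgeR adjusted p = 0.178, and 0.0455 without V502). In the continuous fit PDZK1 rose by 1.35 ± 0.20 log2 units per log2 unit of ESR1 (edgeR adjusted p = 0.0113), also without V581 (0.0277) and without V509 (0.0407).

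GREB1, the best-known early oestrogen target, overlapped widely between the groups. It stood at 43.7, 84.2, 28.0, 59.7 and 54.8 CPM in the ESR1-high libraries and at 21.1, 81.3, 35.2, 42.1 and 18.7 CPM in the ESR1-low libraries. V531 (81.3 CPM) was nearly as high as V507 (84.2 CPM), and the middle library V538 was highest of all at 112 CPM. The log2 difference of 0.44 ± 0.49 became -0.054 when the 7 highest were set against the 7 lowest. RAPGEFL1, a guanine nucleotide exchange factor, was at 2.58 to 8.29 CPM against 1.05 to 3.36 CPM (1.36 ± 0.39), with only V598 inside the ESR1-low range. CCND1, the cyclin of entry into the cell cycle, was at 74.0 to 129 CPM against 48.8 to 82.6 CPM (0.71 ± 0.27), counted on a stretch 2.8 times as long as its RefSeq gene. HSPB8, a small heat shock protein, was at 145 to 374 CPM against 78.1 to 253 CPM (1.03 ± 0.41).

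Some oestrogen-induced genes stood lower. STC2, a stanniocalcin, was at 7.45, 13.0, 6.99, 5.01 and 4.69 CPM in the ESR1-high libraries and at 0.393, 34.7, 19.8, 26.2 and 2.50 CPM in the ESR1-low libraries, a log2 difference of -1.17 ± 0.84. The ESR1-low libraries were split, with V531, V610 and V615 above and V502 and V509 below every ESR1-high library. TFF3, a secreted trefoil peptide counted on a stretch 3.3 times as long as its RefSeq gene, differed by -0.88 ± 0.97, which became 0.26 without V509. The log2 difference of IGFBP5, an insulin-like growth factor binding protein, was -1.28 ± 0.59 with V502 (474 CPM) and 0.085 without it. ADCY9, like IGFBP5 lower at an unadjusted edgeR p under 0.05, differed by -0.59 ± 0.26 (adjusted p = 0.308), and its groups overlapped.

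Among the genes of paracrine signalling, a list of signals, their receptors and related genes, amphiregulin was the 1 of 17 tested that rose with ESR1 in the continuous fit, against 0.28% of all rows. AREG, a growth factor of the EGF family that stimulates ductal growth, stood at 205, 55.0, 33.6, 26.9 and 31.2 CPM in the ESR1-high libraries and at 17.5, 35.7, 30.4, 18.7 and 16.5 CPM in the ESR1-low libraries. V581 was far above the rest, and V531 and V610 were inside the range of the other ESR1-high libraries. The log2 difference was 1.56 ± 0.49 (edgeR adjusted p = 0.240) and 0.63 without V581. In the continuous fit AREG rose by 0.66 ± 0.11 log2 units per log2 unit of ESR1 (edgeR adjusted p = 0.0244). That call was lost without V581 (adjusted p = 0.210) and without V509 (0.0558).

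Of 22 listed paracrine genes 17 were tested, 7 with a higher and 10 with a lower sign and a median log2 difference of -0.05, which is that of all rows (-0.15 without V581 and 0.07 without V502). TNFSF11, the RANK ligand, was at 0.275 to 0.695 CPM against 0.218 to 1.60 CPM (-0.54 ± 0.54). WNT5A, a secreted WNT ligand, was at 0.771 to 1.63 CPM against 0.152 to 0.917 CPM (0.94 ± 0.46). TGFBR2, a receptor of transforming growth factor beta, was lower in every ESR1-high library, at 63.3 to 109 CPM against 110.2 to 163 CPM (-0.70 ± 0.30), the only one of the 17 whose groups did not overlap, against 2.07% of all rows wholly lower and 2.83% wholly higher. WNT4 and IGF1 were not analysed here.

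Among the EGF family, 9 of 15 listed genes were tested, and 7 had a higher sign, with a median log2 difference of 0.38 (0.16 without scaling factors, and 0.59 without V509). Before adjustment 4 of 9 were higher at a p under 0.05, against 7.51% of all rows. They were AREG, BTC (betacellulin, 6.46 to 11.0 CPM against 2.24 to 6.77 CPM, 1.11 ± 0.37), HBEGF (heparin-binding EGF, 0.82 ± 0.32, on a stretch 6.2 times as long as its RefSeq gene) and the receptor ERBB3 (107 to 270.3 CPM against 77.9 to 177 CPM, 0.71 ± 0.33, and 0.96 without V509). EGFR, the receptor of amphiregulin, had a log2 difference of -0.53 ± 0.30. The paracrine and EGF lists share AREG.

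The coregulators that the receptor recruits had more lower than higher signs. All 20 listed were tested, 7 with a higher and 13 with a lower sign, against 46.5% and 53.5% of all rows, with a median log2 difference of -0.26 (-0.16 without V581 and -0.45 without scaling factors). Before adjustment 6 were lower and 0 higher at a p under 0.05, against 7.94% and 7.51% of all rows, and 0 passed after adjustment. Their summed level was 2095 to 2447 CPM in the ESR1-high and 2123 to 2651 CPM in the ESR1-low libraries, nearly the same range. The corepressor NCOR1 stood at 72.9, 119, 118, 128 and 131 CPM in the ESR1-high libraries and at 118, 194, 176, 207 and 181 CPM in the ESR1-low libraries (-0.63 ± 0.24). The coactivator NCOA3 was at 37.8 to 72.0 CPM against 65.1 to 127 CPM (-0.69 ± 0.27), and the acetyltransferase CREBBP, whose groups did not overlap, at 36.6 to 68.5 CPM against 69.3 to 95.6 CPM (-0.57 ± 0.22). In all 3, V581 was the lowest ESR1-high and V502 the lowest ESR1-low library.

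Other nuclear receptors were divided. Of 32 listed 29 were tested, 15 with a higher and 14 with a lower sign, with a median of 0.06 (-0.11 without scaling factors, and 0.21 without V502). VDR, the vitamin D receptor, stood at 51.0, 25.2, 42.4, 40.2 and 15.2 CPM in the ESR1-high libraries and at 19.7, 3.90, 7.04, 8.20 and 8.80 CPM in the ESR1-low libraries. V598 (15.2 CPM) was below V502 (19.7 CPM), and the other ESR1-low libraries were below every ESR1-high one. The log2 difference was 1.86 ± 0.51 (edgeR adjusted p = 0.234), and VDR passed without V502 (2.35, adjusted p = 0.0466).

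Of 25 listed genes of steroid synthesis and conversion 17 were tested, and 14 had a higher sign, with a median of 0.40 against -0.05 over all rows. The median was 0.66 without V502, 0.27 without V581 and 0.24 without scaling factors. Only CYP11A1 was higher at an unadjusted p under 0.05, a share near the 7.51% of all rows. CYP11A1, the enzyme that makes pregnenolone from cholesterol, stood at 507.5, 272, 199, 222 and 148 CPM in the ESR1-high libraries and at 109, 94.7, 127, 82.0 and 83.3 CPM in the ESR1-low libraries. The groups did not overlap (1.44 ± 0.39, edgeR adjusted p = 0.234). It was counted on a stretch 8.0 times as long as its RefSeq gene, so the row may hold reads of neighbouring genes. With V479 in place of V502 the log2 difference was 0.70.

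Of the 5 luminal keratins listed, KRT18 and KRT8 stood higher in every ESR1-high library, and the groups overlapped in KRT19 (1.32 ± 0.57), KRT7 (0.62 ± 0.42) and KRT23 (0.46 ± 0.78). KRT18 stood at 1441, 476, 324, 242 and 202 CPM in the ESR1-high libraries and at 96.7, 115, 81.4, 68.9 and 174 CPM in the ESR1-low libraries. KRT8, with which it pairs in a filament, stood at 2953, 1481, 1379, 680.2 and 636 CPM in the ESR1-high libraries and at 329.7, 442, 387, 345 and 539 CPM in the ESR1-low libraries. In KRT18 and KRT8, each ESR1-high library was above every ESR1-low one, V581 was highest, and V595 and V598 were closest to the ESR1-low range. The log2 differences were 2.32 ± 0.56 for KRT18 (edgeR adjusted p = 0.227) and 1.80 ± 0.48 for KRT8 (0.234), and 1.54 and 1.35 without V581.

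Of the 14 luminal markers, all were tested, 12 with a higher and 2 with a lower sign, and their median was 0.92. By unadjusted p (under 0.05), 6 were higher and 1 lower, against 7.51% and 7.94% of all rows. PROM1, with a lower sign, differed by -0.15 ± 0.32 and its groups overlapped. The marker that was lower at an unadjusted p under 0.05 is not described here. All other luminal markers given values here and above had a higher sign. The groups did not overlap in 3 (KRT8, KRT18 and ELF3), against 2.83% of all rows. ELF3, an epithelial factor, was at 43.4 to 189.9 CPM against 30.5 to 40.3 CPM (1.34 ± 0.42), and CLDN4, a tight junction protein, at 735 to 2635 CPM against 522 to 973 CPM (1.34 ± 0.48). The summed level of the list was 3851 to 11181 CPM in the ESR1-high and 3313 to 4391 CPM in the ESR1-low libraries. These levels depended on where V479 fell. That library had the highest luminal sum of all 15 (16113 CPM) with ESR1 just above the low group. When it stood in the low group in place of V502, the list median was 0.18 and the log2 difference of KRT18 1.17 and of KRT8 0.68, and with the 7 highest against the 7 lowest the median was 0.25.

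The basal lineage was divided. TP63, the factor that keeps basal cells in their state, stood at 10.9, 8.58, 11.0, 15.6 and 9.08 CPM in the ESR1-high libraries and at 7.25, 56.9, 52.4, 51.3 and 75.2 CPM in the ESR1-low libraries. Of the ESR1-low libraries 4 were at 51.3 CPM or more, and V502 (7.25 CPM) was below every ESR1-high library. The log2 difference was -2.14 ± 0.55 (edgeR adjusted p = 0.234), and TP63 passed without V502 (-2.39, adjusted p = 0.0383). The basal keratins went the other way. KRT5 was at 643 to 2641 CPM against 466 to 1036 CPM (1.13 ± 0.52) and KRT14 at 516 to 3285 CPM against 348 to 953 CPM (1.39 ± 0.58). Both were counted over loci many times their RefSeq length (20.5 and 13.6 times), KRT14 and KRT17 are 1 counted locus, and neighbouring keratins may be joined there. Of 15 basal or myoepithelial loci tested, 9 had a higher and 6 a lower sign, with a median of 0.20. It was 0.65 without V502, 0.00091 without V509 and -0.07 without V581.

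Genes of the luminal progenitor, the cell type that receives the signals, showed no common direction. Of 18 listed, 15 were tested, 8 with a higher and 7 with a lower sign and a median of 0.02 (-0.15 without scaling factors, and -0.09 without V509). LBP, a lipopolysaccharide binding protein, stood at 119, 39.3, 58.4, 75.9 and 61.0 CPM in the ESR1-high libraries and at 22.5, 19.8, 15.0, 11.6 and 19.5 CPM in the ESR1-low libraries. Every ESR1-high library was above every ESR1-low one (2.00 ± 0.46, edgeR adjusted p = 0.227), and with V479 (120.0 CPM) in place of V502 the log2 difference was 0.93. KIT, a receptor of luminal progenitors, was at 31.3 to 58.8 CPM against 43.9 to 64.1 CPM (-0.28 ± 0.24). ELF5, the alveolar factor, was at 78.0 to 281 CPM against 76.5 to 193 CPM (0.84 ± 0.45), on a stretch 3.8 times as long as its RefSeq gene.

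In prolactin signalling, 12 of 19 tested genes had a higher and 7 a lower sign, with a median of 0.06 (-0.12 without scaling factors, and 0.14 without V502). CAV1, caveolin, which restrains prolactin signalling and is also abundant in endothelial cells and fibroblasts, stood at 90.3, 93.3, 79.4, 117 and 187 CPM in the ESR1-high libraries and at 347, 264, 379.7, 294 and 273 CPM in the ESR1-low libraries. The groups did not overlap, with a log2 difference of -1.46 ± 0.51 (edgeR adjusted p = 0.251). Some middle libraries lay outside both groups. V478 (32.7 CPM) and V490 (45.2 CPM) were below every ESR1-high library, and V538 (396 CPM) was the highest of all. CAV1 missed the threshold in the continuous fit (edgeR adjusted p = 0.107). SOCS3, an inhibitor of cytokine signalling, was at 50.4 to 64.3 CPM against 48.1 to 154 CPM (-0.81 ± 0.40). Of 16 genes of the insulin-like growth factor axis, 5 had a higher and 11 a lower sign, with a median of -0.18 that was 0.20 without V502. IGF1R, the receptor, was at 118 to 183 CPM against 75.3 to 133 CPM (0.49 ± 0.20), and STC1 at 79.8 to 171 CPM against 139.9 to 524 CPM (-1.25 ± 0.50, on a stretch 4.3 times as long as its RefSeq gene).

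Markers of cells other than epithelium followed single libraries. Of 14 fibroblast markers 12 had a lower sign, with a median of -0.94 that became 0.41 without V502. COL1A1, a chain of type I collagen, stood at 611, 241, 89.3, 129 and 365 CPM in the ESR1-high libraries and at 7452, 15.0, 404, 121 and 160.2 CPM in the ESR1-low libraries, a log2 difference of -2.52 ± 1.22 that became 0.75 without V502. Of 15 tested endothelial markers 14 had a lower sign, with a median of -0.61, -0.08 without V502 and 0.45 without V502 and V509. Their summed level was 153.1 to 427 CPM in the ESR1-high and 81.9 to 1057 CPM in the ESR1-low libraries, and 1 marker was at 0 in some library. PECAM1, an endothelial adhesion molecule, was at 243.7 CPM in V502.

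Leukocyte markers (19 tested, 13 with a lower sign, median -0.19) summed to 48.3 to 154.2 CPM in the ESR1-high and 67.0 to 167.4 CPM in the ESR1-low libraries, and the median was 0.01 without V509, 0.11 without V502 and -0.51 without V581. Adipocyte markers (9 tested, 5 with a higher sign, median 0.04, and 0.35 without V502 and -0.18 without V581) summed to 74.4 to 120.7 and 62.3 to 270.5 CPM, highest in V502. The part of V502 in the results on TP63, IGFBP5 and the coregulators was measured only by leaving it out.

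**Figure D2:**
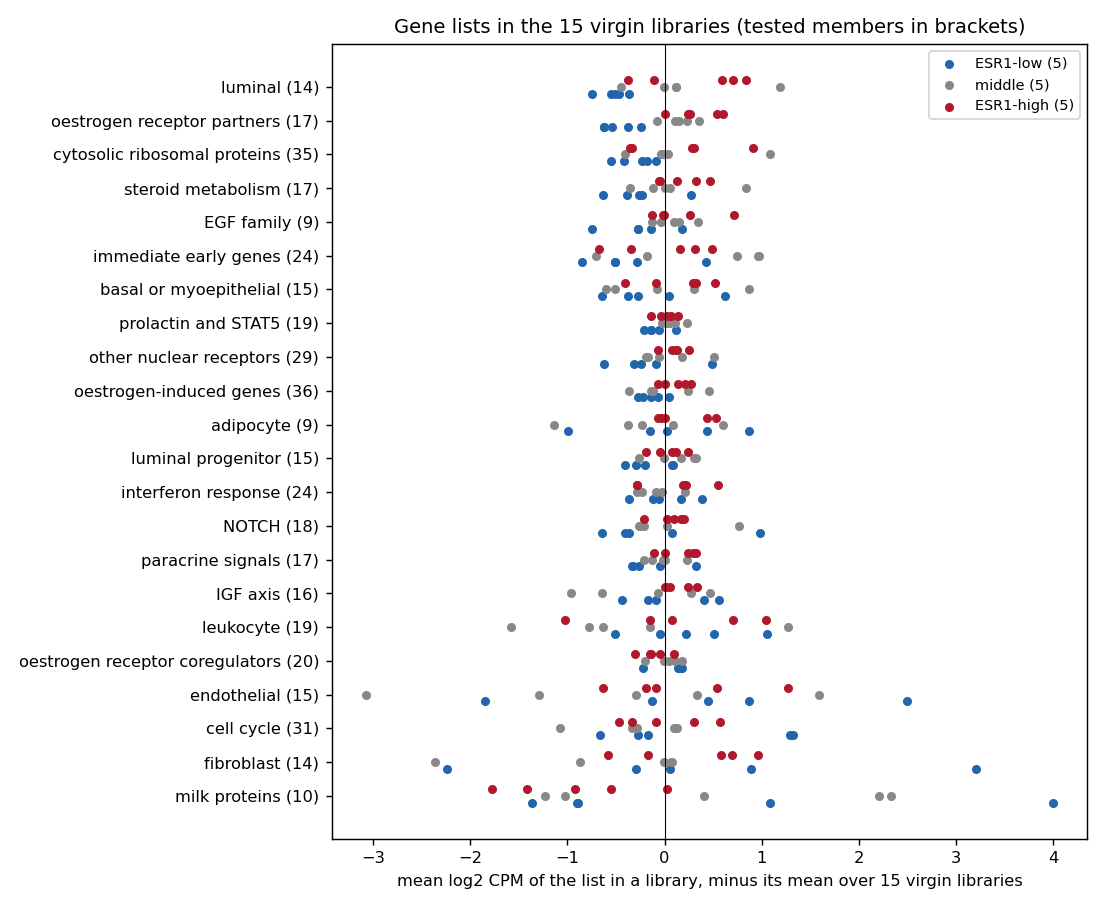
Mean log2 CPM of each gene list in each virgin library, minus the mean over the 15 libraries, with lists ordered from the highest to the lowest median log2 difference and the number of tested members in brackets. Oestrogen receptor partners lie further right in every ESR1-high than in every ESR1-low library, and the middle libraries overlap the ESR1-high ones. Luminal markers lie further right in the ESR1-high libraries except V595 (mean log2 CPM 6.92), which lies just left of V610 (6.94). The middle library V479 (8.49) lies furthest right for luminal markers. The lowest lists (milk proteins, fibroblast, cell cycle, endothelial) show 1 or 2 ESR1-low libraries far to the right.

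Milk protein genes had lower signs in the ESR1-high libraries, with the highest levels in V509. CSN2, which encodes beta-casein, stood at 0.125, 3.80, 2.64, 14.6 and 0.220 CPM in the ESR1-high libraries and at 4.15, 0.846, 69.6, 0.647 and 1454 CPM in the ESR1-low libraries. PAEP, beta-lactoglobulin, stood at 0.0313, 1.18, 0.495, 1.75 and 0.242 CPM in the ESR1-high libraries and at 1.00, 0, 31.5, 0.259 and 890.1 CPM in the ESR1-low libraries. V509 and V610 were the only libraries of the 10 above 20 CPM in either gene, and the log2 differences of -6.17 ± 2.29 and -8.00 ± 2.41 became -2.15 and -3.50 without V509, when V610 was the highest of the 9 left. Of the middle libraries, V490 (CSN2 302 CPM, PAEP 56.2 CPM) and V479 (300 and 45.5 CPM) also lay above V610 in both genes. V468, V478 and V538 were at 4.83 CPM or less in both. Of 15 listed genes 10 were tested, 9 with a lower sign, against 53.5% of all rows, with a median of -2.25 that became -0.39 without V509. CSN3, kappa-casein, was expressed in every library at 224 to 544 CPM against 184 to 1006 CPM, and its log2 difference of -0.50 ± 0.40 became 0.029 without V509.

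Cell cycle genes had a lower sign in 28 of 31 cases, against 53.5% of all rows, with a median log2 difference of -0.67. Their summed level was highest in V509 (412 CPM) and V502 (376 CPM) and lay between 220.2 and 291.6 CPM in the other 8 libraries. The median was -0.31 without V509, -0.33 without V502 and 0.62 without both. CCNE1, a cyclin of the start of DNA replication, was lower in every ESR1-high library at 0.936 to 1.32 CPM against 1.55 to 2.75 CPM (-0.93 ± 0.36), and CENPE, a mitotic motor, was at 1.87 to 4.98 CPM against 2.51 to 12.5 CPM (-1.10 ± 0.46). At an unadjusted p under 0.05, 4 of 31 were lower and 0 higher, against 7.94% and 7.51% of all rows. MKI67 was not analysed here.

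Outside the lists, the genes with the smallest p among those whose groups did not overlap were named by a rule added after the values were seen, and their separation is part of that rule. GOLGA7, a palmitoylation cofactor of the Golgi, had the smallest adjusted p of the rows named here. It stood at 168, 164, 121, 98.0 and 122 CPM in the ESR1-high libraries and at 69.2, 71.7, 49.2, 54.2 and 56.5 CPM in the ESR1-low libraries. The ESR1-high libraries began at 98.0 CPM and the ESR1-low ones ended at 71.7 CPM, with a log2 difference of 1.16 ± 0.20 (edgeR adjusted p = 0.166). AOX1, aldehyde oxidase, stood at 520.4, 349, 521, 176 and 198 CPM in the ESR1-high libraries and at 143, 105, 81.9, 40.6 and 108 CPM in the ESR1-low libraries (1.87 ± 0.39).

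SERPINA5, a serine protease inhibitor, was at 35.4 to 176 CPM against 5.13 to 27.2 CPM (2.69 ± 0.56), and RFX5, a regulator of MHC class II genes, at 56.0 to 101 CPM against 15.3 to 36.6 CPM (1.74 ± 0.35). PDZD2, a PDZ domain protein, was at 55.1 to 111 CPM against 20.3 to 39.6 CPM (1.33 ± 0.25). All 5 of these genes passed without V502, with edgeR adjusted p of 0.0383 for GOLGA7, 0.0455 for AOX1, 0.0455 for SERPINA5, 0.0383 for RFX5 and 0.0455 for PDZD2.

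Of the genes lower in every ESR1-high library, BMP1, the protease that matures procollagen, stood at 20.5, 13.4, 10.9, 21.4 and 26.9 CPM in the ESR1-high libraries and at 65.2, 41.5, 42.7, 58.6 and 50.1 CPM in the ESR1-low libraries (-1.47 ± 0.32). NAV3, a microtubule-binding neuron navigator, was at 12.3 to 36.5 CPM against 38.6 to 157 CPM (-1.80 ± 0.47), and NRP2, a receptor for semaphorins and vascular growth factors, at 18.4 to 35.3 CPM against 38.9 to 94.9 CPM (-1.24 ± 0.36). EFNA2, an ephrin ligand, was at 1.76 to 2.73 CPM against 2.84 to 14.3 CPM (-1.70 ± 0.42), HES6, a HES family factor, at 4.54 to 9.45 CPM against 13.6 to 24.3 CPM (-1.36 ± 0.35), and IPO13, a nuclear import receptor, at 5.97 to 8.12 CPM against 10.6 to 23.2 CPM (-1.23 ± 0.30). Of these 6, EFNA2 (edgeR adjusted p = 0.0455) and IPO13 (0.0480) passed without V502. FAM13B differed by -1.72 ± 0.50, GIT2, an Arf GTPase activating protein, by -0.90 ± 0.24, and the ubiquitin ligase HECTD3 by -0.92 ± 0.26.

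The continuous fit over all 15 virgin libraries called 51 rows, all with the sign they had between the groups. Both fits use the same libraries and ESR1 values, so the shared sign is no independent support. SULT1C4 and a row with no symbol held the same values, so 1 counted locus stands more than once among the rows that rose. Of the 51 rows, 36 are named by a symbol and average 2 or more log2 CPM, of which 33 rose with ESR1 and 3 fell. ENPP5, an ectonucleotidase family member, rose by 0.58 ± 0.08 log2 units per log2 unit of ESR1 (edgeR adjusted p = 0.0113), GOLGA7 by 0.46 ± 0.07 (0.0113), KYNU, the kynureninase of tryptophan breakdown, by 0.84 ± 0.13 (0.0205), and AQP5, a water channel of secretory epithelium, by 1.11 ± 0.19 (0.0244). Without V581, GOLGA7 passed (edgeR adjusted p = 0.0440), but ENPP5 (0.102), KYNU (0.102) and AQP5 (0.145) did not. Each of these genes passed without V509. ENPP5 stood at 49.4, 20.5, 25.7, 20.4 and 18.7 CPM in the ESR1-high libraries and at 8.74, 15.7, 9.40, 8.85 and 9.48 CPM in the ESR1-low libraries, so that V531 came closest to the ESR1-high libraries. AQP5 stood at 139.6, 48.8, 18.2, 14.8 and 5.05 CPM in the ESR1-high libraries and at 3.89, 12.2, 4.73, 2.72 and 6.13 CPM in the ESR1-low libraries, with V581 nearly 3 times the next and V598 inside the ESR1-low range.

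ABCC3, an export pump for bile salts and conjugated steroids, rose by 0.71 ± 0.12 (edgeR adjusted p = 0.0296), AASS, an enzyme of lysine breakdown, by 0.47 ± 0.08, and RCAN1, an inhibitor of calcineurin, by 0.59 ± 0.11. RCAN1 was counted on a stretch only 0.098 times as long as its RefSeq gene. SLC16A7, a monocarboxylate transporter, rose by 0.53 ± 0.10. It was at 11.6 to 12.8 CPM in all 5 ESR1-high libraries and at 8.74, 5.23, 3.80, 4.10 and 3.84 CPM in the ESR1-low ones. The 3 that fell were GIT2 (-0.39 ± 0.07) and the histone methyltransferase genes SETD1B (-0.53 ± 0.10, on a stretch 4.3 times as long as its RefSeq gene) and KMT2D (-0.40 ± 0.08). Without V581, SLC16A7 passed (edgeR adjusted p = 0.0440), but ABCC3, AASS, RCAN1, GIT2, SETD1B and KMT2D did not (0.102 to 0.137). None of these genes, SLC16A7 included, passed without V509 (0.0558 to 0.0895). Of the 51 calls, 9 held without V581 and 7 without V509, with 12 and 2 rows higher and lower in all without V581 and 8 and 0 without V509. The rows called in all 3 fits were 3, including PDZK1 and GOLGA7. FOXA1 (0.50 ± 0.12, edgeR adjusted p = 0.0648) and TBX3 (0.32 ± 0.10, 0.0946) missed the threshold in this fit.

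The lactating libraries of the same animals were not used in the ranking, so they allow a test of ESR1 itself. ESR1 stood at 11.3, 2.76, 5.53, 2.53 and 17.8 CPM in L581, L507, L504, L595 and L598 of the ESR1-high heifers, and at 4.00, 13.9, 8.82, 16.4 and 3.43 CPM in L502, L531, L610, L615 and L509 of the ESR1-low heifers. The groups were mixed. The means of log2 CPM were 2.60 ± 1.23 and 2.96 ± 1.02 (SD, n = 5 each), a difference of -0.36 with a two-sided exact permutation p of 0.627, where the smallest p that 5 against 5 allows is 0.00794. Across the 15 animals, virgin and lactating log2 CPM of ESR1 had a Pearson r of -0.03 (permutation p = 0.925, adjusted 0.925) and a Spearman rank coefficient of -0.16 (permutation p = 0.554, adjusted 0.738), with p adjusted over the 4 values computed. Without V581 and V509, the virgin libraries farthest from the median, Pearson's r was -0.40 (permutation p = 0.169, adjusted 0.339) and Spearman's coefficient -0.47 (permutation p = 0.108, adjusted 0.339). With all 30 libraries scaled together, ESR1 was lower in lactation in 14 of 15 animals, in 5 of the 5 ESR1-high and 4 of the 5 ESR1-low. The lactating libraries also differed widely in milk transcripts. Among those of the ESR1-high and ESR1-low heifers, CSN2 ran from 9416 CPM in L531 to 178584 CPM in L502. The part of milk transcripts in the lactating ESR1 values was not tested.

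No other gene passed in the lactating libraries either. Of 13266 rows, 0 (0%) were higher and 0 (0%) lower in those of the ESR1-high heifers (edgeR adjusted p under 0.05), with 127 higher (0.957%) and 104 lower (0.784%) at an unadjusted p under 0.05, and DESeq2 called 0 higher and 1 lower. The groups did not overlap in 24 higher (0.181%) and 16 lower (0.121%) rows. Of the 369 rows wholly higher in the ESR1-high virgin libraries and tested in lactation, 246 kept the higher sign, against 52.1% of all rows, and 1 was again wholly higher. Of 276 wholly lower rows, 168 kept the lower sign, against 47.9% of all rows, and 0 were again wholly lower. Genes are not independent of each other, so these shares carry no test.

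Of the named genes, PDZK1 differed by 0.77 ± 0.70 (SE) on the log2 scale in lactation, PAQR7 by 0.64 ± 0.48 and VDR by 0.57 ± 0.38, each within 2 standard errors of 0. FOXA1 differed by -0.18 ± 0.51, TBX3 by -0.22 ± 0.20, AREG by -0.08 ± 0.46, KRT18 by -0.34 ± 0.48 and KRT8 by -0.21 ± 0.32, and TP63 by 0.04 ± 0.17. LBP was higher by 0.73 ± 0.24, with an unadjusted edgeR p of 0.00886 and an adjusted p of 0.9999. Of the 17 receptor partners 8 had a higher sign in lactation, with a median of -0.07, and of the 14 luminal markers 4, with a median of -0.16. The difference between the stages was not tested.

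**Figure D3:**
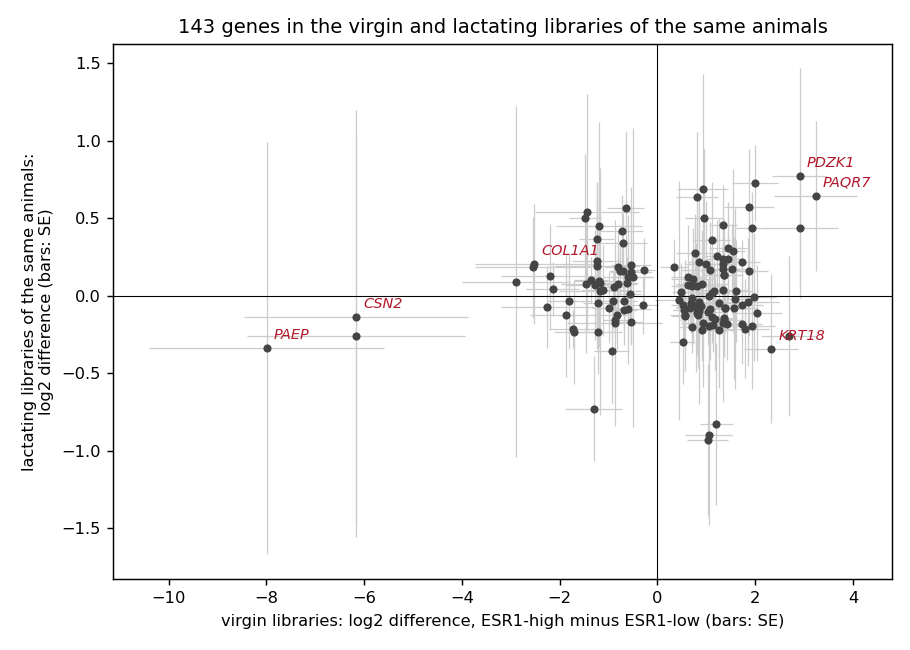
Log2 difference between the ESR1-high and ESR1-low animals in virgin libraries (horizontal) and in lactating libraries of the same animals (vertical), 1 point per gene with SE bars. The 143 genes are those selected by the naming rules, of which a part is printed in the text. The vertical spread is smaller than the horizontal one, and PAQR7 (3.24 virgin, 0.64 lactating), AQP5 (2.92 and 0.44) and PDZK1 (2.91 and 0.77) lie furthest to the right. Many of the genes were chosen by their virgin values, and that choice alone favours a wider horizontal spread. The spreads therefore carry no test of a change between the stages.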

How the data were processed

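The authors deposited whole-number counts of reads for each gene, with no normalization, for 31 libraries. A second deposited table holds RPKM values, which the authors scaled by library and locus length; it served only to recover locus lengths. Per the submitters' processing notes, the tools included featureCounts 1.5.2, HISAT2 2.0, edgeR and StringTie 1.3.2, with genome build UMD3.1. The sources used here do not state what each tool did. Of 14084 rows (13407 distinct loci), 13559 other than ESR1 were tested and 524 were left out by filterByExpr (minimum count 10, minimum total 15). Neither coordinates nor sequences are given, since the gene table at hand had a different build and no sequence.

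Libraries were ranked by log2 CPM of ESR1 (TMM factors over the 15 virgin libraries, prior count 2). The main test was edgeR 4.0.16 (R 4.3.3) glmQLFit with robust estimation and glmQLFTest on the 15 virgin libraries in 3 groups of 5, ESR1-high minus ESR1-low, with Benjamini-Hochberg adjustment over all rows other than ESR1 and a threshold of 0.05. SE is the log2 difference divided by the square root of F. The lactating libraries of the same 15 animals were fitted in the same groups, with ESR1 tested by an exact permutation test. Alternatives covered DESeq2 1.42.0, scaling, filters, group sizes, ESR1 as a continuous term and leaving out libraries. Total counts were 20128378 to 60114505 per virgin and 26827018 to 72138358 per lactating library.

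The members and lists were chosen with earlier results of these data known. Of 466 list genes, 417 had a row. Named genes were to be the 15 called rows with the largest difference in each direction with no overlap between groups. That gave 0 rows, so the 12 rows with the smallest p in each direction among non-overlapping rows named by a symbol and averaging 2 or more log2 CPM were taken after seeing the data. From each list the 4 members of smallest p, a fixed set of hormone and lineage genes, and rows called in the continuous fit were added, of which a part is printed. On simulated data with 13560 rows for the group comparison, 0 of 50 rows changed 1.5-fold, 4 of 50 changed 2-fold, 31 of 50 changed 4-fold and 44 of 50 changed 8-fold were recovered, with 4 unchanged rows among 83 calls. For the continuous fit the numbers were 0, 11, 36 and 48 of 50, with 2 unchanged among 97. No 2 virgin libraries agreed within sampling noise (lowest chi-square per degree of freedom 35.0 over 105 pairs).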

Additional observations from a re-analysis of the deposited data

Results flagged for a closer look

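Within each group of 5 virgin libraries, the highest and the lowest library were checked for a gap to the nearest other library that is large beside the range of the group. Of 196 groups checked, 18 (9.18%) held such a library. The rule would flag about 1 in 20 unselected, independent groups by chance. The groups checked share libraries, ESR1 itself made the ranking, and many genes were chosen by their virgin values. The share of flagged groups therefore carries no test. All values are log2 CPM. In the ESR1-high libraries, V581 stood apart with ESR1 highest at 8.33 and with NCOR1 (6.19), NCOA3 (5.24), CREBBP (5.20) and SETD1B (1.44) lowest. V595 was lowest in FOXA1 (4.54), V504 in PTPRC (1.72), a marker of all leukocytes, and V507 in HECTD3 (2.23). In the ESR1-low libraries, V502 stood apart with IGFBP5 (8.89) and AASS (5.71) highest and TP63 (2.87), NCOR1 (6.88), CREBBP (6.12), SETD1B (2.79) and KMT2D (5.50) lowest, and it was lowest in the mean of the coregulator list (5.73). V509 was lowest in RAPGEFL1 (0.15) and V531 highest in ENPP5 (3.98).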

How the results depend on the processing

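The counts of called genes moved with the setting (edgeR adjusted p under 0.05 except for DESeq2). The comparison of the groups called 0 higher and 0 lower, against 101 and 54 with DESeq2, 22 and 5 with only the 10 libraries compared, 67 and 10 with the 4 highest against the 4 lowest, 15 and 16 with the 7 highest against the 7 lowest, and 1 and 0 when the ranking used no scaling factors. ESR1 as a continuous term called 38 and 13, 12 and 2 without V581, and 8 and 0 without V509. Leaving out single libraries gave 0 to 88 higher and 0 to 29 lower, with the highest counts without V502. The other alternatives, among them other scaling and filters, a term for the lettered titles or for the total count, and the fits without V502 and V509 or without V581 and V509, called 0. In the lactating libraries DESeq2 called 1 lower, and the other alternatives called 0. The difference in lactating ESR1 ranged from -0.75 to -0.05 when single libraries were left out. Of 2067 values for 74 named genes, 1960 kept their direction and side of the threshold, 92 passed the threshold in an alternative only (36 genes), and 15 changed sign. The log2 difference of GREB1 became -0.054 with 7 against 7. When single virgin libraries were left out, TFF3 ranged from -1.52 to 0.26 (highest without V509), IGFBP5 from -1.50 to 0.085, COL1A1 from -2.99 to 0.75 and COL3A1 from -2.52 to 0.027 (all highest without V502), and CSN3 from -0.77 to 0.029 (highest without V509). Without V502 and V509 the values were 0.016 for TFF3, 0.020 for IGFBP5, 0.71 for COL1A1 and 0.016 for COL3A1, and TFF3 was at 0.071 without V581 and V509. With the unscaled ranking COL1A1 was at 0.65 and COL3A1 at 0.16, and with 4 against 4 COL1A1 was at 0.61. The slope of CSN3 on ESR1 was 0.13 without V509. The cause was not tested. Of 550 list medians, 22 moved by more than the spread between libraries. No paired analysis was possible because the ESR1-high and ESR1-low groups hold different animals. Each animal gave 1 virgin library, so differences between animals and between preparations cannot be told apart.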

Other observations

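Cytosolic ribosomal protein genes, which code for the protein part of the ribosome, had a higher sign in 35 of 35 cases in the ESR1-high virgin libraries, against 46.5% of all rows, with a median log2 difference of 0.53 (0.32 without scaling factors and 0.29 without V581). Their summed level was 14765 to 34916 CPM in the ESR1-high and 12600.1 to 17751 CPM in the ESR1-low libraries, so the groups overlapped, and V479 of the middle libraries was highest of all at 45282 CPM. Only 2 of 35 were higher at an unadjusted p under 0.05, near the 7.51% of all rows. In the lactating libraries of the same animals 0 of 35 had a higher sign, with a median of -0.11. Processed pseudogenes can share reads with them.

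Immediate early genes, which respond within minutes to growth signals and to tissue handling, had a higher sign in 21 of 24 cases, against 46.5% of all rows, with a median log2 difference of 0.26. It was 0.07 without scaling factors, 0.59 without V502, 0.13 without V509 and 0.15 without V581. Only 1 of 24 was higher at an unadjusted p under 0.05, against 7.51% of all rows. Their summed level was 3521 to 8635 CPM in the ESR1-high and 3473 to 8133 CPM in the ESR1-low libraries, nearly the same range. Interferon response genes were split by sign, with 12 higher and 12 lower and a median of -0.01. At an unadjusted edgeR p under 0.05, 5 of the 24 were higher and 1 lower, against 7.51% and 7.94% of all rows. USP18, which removes the interferon-induced modifier ISG15 from proteins, had a log2 difference of 1.35 ± 0.40 (SE) and IFIT3, an antiviral effector, of -1.87 ± 0.74. IFIT3 was at low levels, 0.165 to 0.344 CPM against 0.0907 to 2.27 CPM, highest in V502 and lowest in V531. Genes of the NOTCH pathway, which acts in luminal cell fate, had 9 higher and 9 lower signs, with a median of -0.04 that was 0.25 without V502.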
